A study of Sus scrofa with 12 samples.

Results

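The miR-30 family was described in small RNA libraries of pig testis. Its members were taken by name, as every listed miRNA called miR-30, with or without a letter from a to e and with or without the pig prefix ssc. This gave 13 of the 1452 listed miRNAs. There were 10 entries with the pig prefix (ssc-miR-30d and the 5p and 3p arms of ssc-miR-30a, ssc-miR-30b, ssc-miR-30c and ssc-miR-30e, with ssc-miR-30c-1-3p beside ssc-miR-30c-3p) and 3 entries without it (miR-30-x, miR-30-y and miR-30-z), whose final letter is not explained in the sources used here. There were 4 groups of 3 libraries. Ha and Hb came from Hezuo pigs (HZ) aged 30 and 120 days. La and Lb came from Landrace pigs (LC) of the same 2 ages. HZ is a native, early-maturing breed of the Qinghai-Tibet Plateau, and LC is a western breed that served as its control. No group carried a treatment or an altered gene, and the testes of all groups were obtained by castration. RNA was extracted from pooled samples according to the study's methods, so whether a library stands for a single boar is not stated, and p-values measure only the spread between these libraries.

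MicroRNAs are short RNAs that guide Argonaute proteins to messenger RNAs, mostly through the seed near their 5′ end. Each hairpin precursor has a 5p and a 3p arm, of which one usually dominates after Dicer cleavage. The miR-30 hairpins lie in pairs in mammalian genomes, and their 5p arms share 1 seed, so that they are predicted to recognise overlapping sets of messenger RNAs. The family is widely expressed in mammalian tissues and is known for roles in cell differentiation, including the epithelial to mesenchymal transition and kidney development.

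The listed sequences of the 5p entries are shown because they carry the shared seed, which is given in capitals (bases 2 to 8) with T in place of U as in the deposited list.
ssc-miR-30e-5p: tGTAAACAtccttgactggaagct
ssc-miR-30a-5p: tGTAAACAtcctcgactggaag
ssc-miR-30c-5p: tGTAAACAtcctacactctcagc
miR-30-x: tGTAAACAtcctcgactggaagca
miR-30-z: tGTAAACAtcctacactctcagcat

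The seed GTAAACA was held by 7 members, which were these 5 together with ssc-miR-30d and ssc-miR-30b-5p. Counted from 1 at the 5′ end of the first named, ssc-miR-30e-5p and ssc-miR-30a-5p differed at 1 of 22 compared bases (T13C), outside the seed. The miR-30-x sequence is that of ssc-miR-30a-5p with 2 more bases at its 3′ end, and miR-30-z is that of ssc-miR-30c-5p with 2 more. Tags could therefore be divided between these entries, and their counts are not fully separate measurements. Only 1 listed entry outside the family, miR-384-x, carried the same seed.

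The 3p entries fell into 3 other seeds. They are shown because the arm ratios below rest on them, again with bases 2 to 8 in capitals.
ssc-miR-30e-3p: cTTTCAGTcggatgtttacagc
ssc-miR-30a-3p: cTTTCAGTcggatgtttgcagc
ssc-miR-30c-3p: cTGGGAGAaggctgtttactct
ssc-miR-30c-1-3p: cTGGGAGAgggttgtttact

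The seed TTTCAGT was shared by ssc-miR-30e-3p, ssc-miR-30a-3p and miR-30-y, and no other listed entry had it. The first 2 differed by A18G alone, and miR-30-y lay within 2 edits of ssc-miR-30a-3p. The entries ssc-miR-30c-3p and ssc-miR-30c-1-3p, from the 2 miR-30c hairpins, shared the seed TGGGAGA and differed by A9G and C12T over 20 compared bases. The remaining 3p entry, ssc-miR-30b-3p, had the seed TGGGAGG.

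In the pig annotation (RefSeq, Sscrofa11.1), the 6 miR-30 hairpin genes form 3 neighbouring pairs. MIR30C-2 (chr1:51383782-51383861) and MIR30A (chr1:51412827-51412933) start 29045 bases apart, and both lie within the bounds of the protein-coding LOC102157778. MIR30D (chr4:6948669-6948747) and MIR30B (chr4:6952794-6952869) start 4125 bases apart, in no other annotated gene. MIR30C-1 (chr6:170426781-170426860) and MIR30E (chr6:170429841-170429920) start 3060 bases apart within NFYC, which encodes a subunit of the nuclear transcription factor Y. The annotation used gives the bounds of genes only, so whether a hairpin is exonic or intronic was not determined. The mature ssc-miR-30c-5p can come from both miR-30c hairpins.

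The libraries held between 6520197 and 16874633 listed counts, so that 3 counts correspond to 0.158 to 0.404 TPM (the deposited counts scaled by a library total). All 13 members were counted in every library, and the edgeR normalization (TMM) factors, which rescale the totals, ran from 0.694 (Hb replicate 2) to 1.20 (Hb replicate 1). Hb replicate 2 stood apart in several measures, and Hb replicate 3 in the marker miR-34c below. The pair Hb replicates 1 and 2 differed most of all replicate pairs in their counts (chi-square per degree of freedom 1178). The other Hb pairs were at 418 and 767.2, and the pairs within the other groups at 49.5 to 242.6. The gonadal somatic marker miR-202 summed to 9575 TPM in Hb replicate 2 and to 17214 and 16329 TPM in Hb replicates 1 and 3. It summed to 18568 to 21737 TPM in Ha, 15179 to 17180.2 TPM in La and 17897 to 24312 TPM in Lb. The germ cell list was represented by 1 of its 5 names, miR-34c, which was at 19.0 to 62.0 TPM in Ha and 12.5 to 20.2 TPM in La. In Hb it was at 1218, 1732 and 11014 TPM in replicates 1 to 3, and in Lb at 9330 to 11634 TPM. The smooth muscle markers miR-143 and miR-145 (both names matched) summed to 18491 to 32819 TPM at 30 days, to 52399.8 to 85652 TPM in Hb and to 49061 to 58260.3 TPM in Lb. The endothelial marker miR-126 summed to 11485 to 15560 TPM at 30 days and to 8529 to 11910 TPM at 120 days. Blood markers (5 of 5 names) summed to 2160.5 to 3575 TPM at 30 days and to 1170 to 2964 TPM at 120 days. Striated muscle markers (4 of 4) lay at 106.4 to 278.1 TPM at 30 days and at 433.8 to 819.4 TPM at 120 days, and epithelial markers (3 of 5) between 28.2 and 150.3 TPM over all libraries. Of these markers, miR-34c and the smooth and striated muscle sums were higher in every 120-day library than in any 30-day library. The sums for miR-202, miR-126, blood and epithelium overlapped between the ages. In bulk tissue, fewer cells of a type and less RNA per cell cannot be told apart. The part of these shifts in the results below was not tested.

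The family took about the same share of the listed counts in 3 of the 4 groups and a lower share in Hb, which was not tested. The share was 4.18% ± 0.236 (SD, n = 3) in Ha, 4.06% ± 0.175 in La and 4.18% ± 0.0363 in Lb. In Hb it was 3.13% ± 0.575, with 3.55%, 2.47% and 3.36% in replicates 1 to 3. The highest Hb library thus lay below the lowest library of the other groups, at 3.92%. This pattern depended on the total: with the 10 most abundant miRNAs left out of it, the share was 9.94% in Ha, 10.1% in La, 6.68% in Hb and 7.87% in Lb, and every 120-day library lay below every 30-day library. For scale, the miR-26 family (6 entries) took 10.5% in Ha, 11.1% in La, 11.4% in Hb and 6.82% in Lb. The let-7 and miR-98 family (28 entries) took 13.9%, 12.8%, 9.40% and 11.6% in the same order.

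The 5p entries made up nearly the whole of the family. Over all libraries ssc-miR-30e-5p held 51.3% of the family's counts and ranked 12 of the 1452 entries by mean TPM (17546). It was followed by ssc-miR-30a-5p with 17.6% (mean 6178 TPM), ssc-miR-30d with 16.3% (5528 TPM), ssc-miR-30c-5p with 9.76% (3289 TPM) and ssc-miR-30b-5p with 3.48% (1215 TPM). In this order of levels, ssc-miR-30a-5p and ssc-miR-30d changed places between groups. The mean of ssc-miR-30d was the higher in Ha (6497 ± 284 against 5391 ± 197 TPM) and in La (6216 ± 308 against 5629 ± 214 TPM). The mean of ssc-miR-30a-5p was the higher in Hb (7272 ± 1509 against 3289 ± 1792 TPM), and in Lb the values of both overlapped (6418 ± 350 and 6111 ± 318 TPM). Among the less abundant members, ssc-miR-30e-3p averaged 251.2 TPM, miR-30-x 123.5, ssc-miR-30a-3p 78.8 and miR-30-y 57.2 TPM. The 2 miR-30c 3p entries were near 10 TPM (10.5 for ssc-miR-30c-3p and 9.31 for ssc-miR-30c-1-3p), so that their spreads rest on 73 to 206 and on at least 77 counts per library. The lowest were ssc-miR-30b-3p (4.07 to 6.76 TPM) and miR-30-z (0.218 to 2.96 TPM, with as few as 2 counts).

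**Figure D1:**
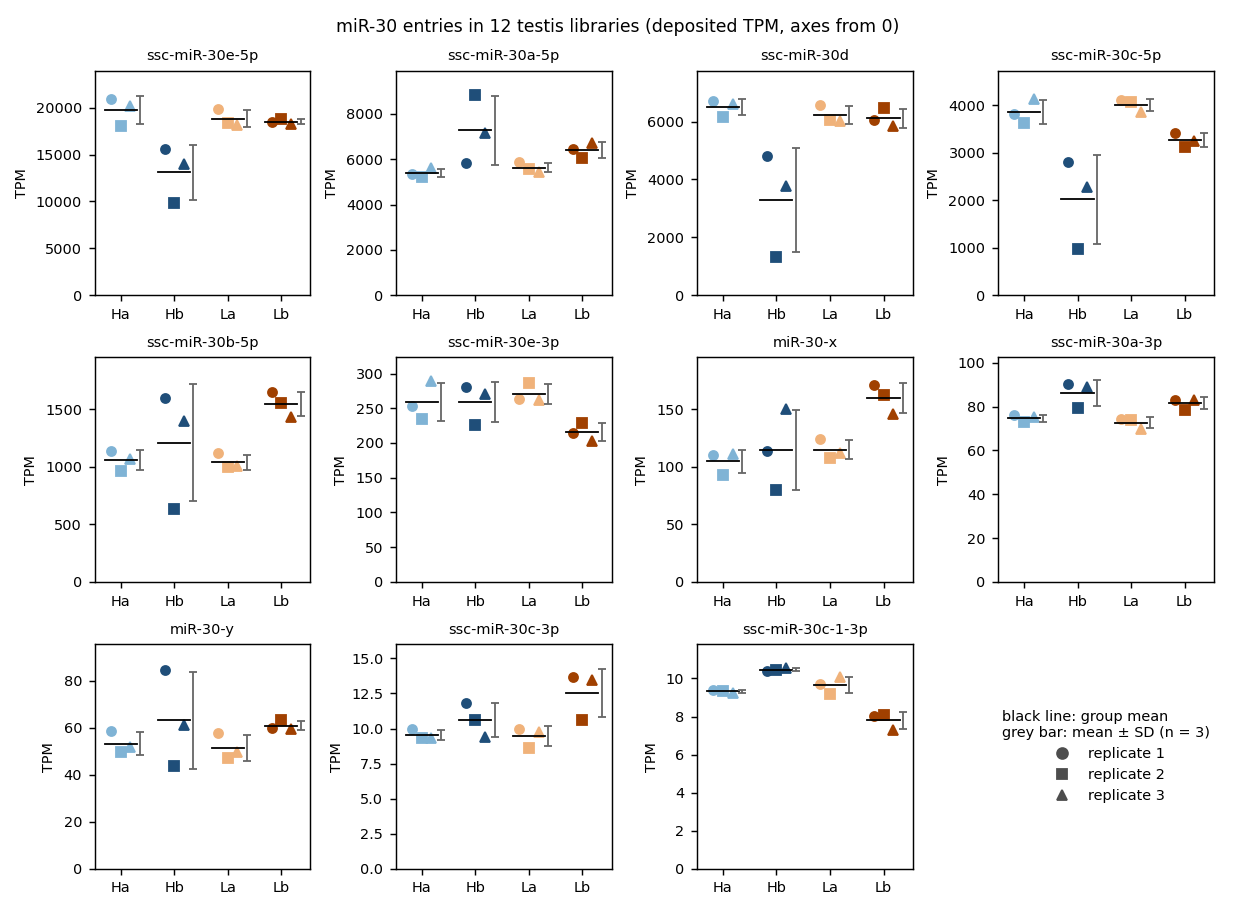
Deposited TPM (vertical axes, from 0) of the 11 miR-30 entries whose mean reached 10 TPM in any group, by group, with 1 point for each library (circle, square and triangle for replicates 1, 2 and 3), a black line for the group mean and a grey bar for mean ± SD (n = 3). The Hb libraries lie lowest for ssc-miR-30e-5p, ssc-miR-30d and ssc-miR-30c-5p, with Hb replicate 2 below the other 2, while the same library is highest for ssc-miR-30a-5p at 8832 TPM.

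The comparison of Ha with Hb asked how the family differs between immature and mature testes of the early-maturing breed. In HZ boars ssc-miR-30d and ssc-miR-30c-5p fell with age, and no member rose past the test. For ssc-miR-30d, the Ha libraries were at 6707, 6174 and 6611 TPM and the Hb libraries at 4802, 1310.0 and 3756 TPM. Every Hb library was below every Ha library, and Hb replicate 2 was the lowest. The log2 fold change was −0.97 (SE 0.287, edgeR quasi-likelihood test, Benjamini-Hochberg adjusted p = 0.0191). For ssc-miR-30c-5p, the values were 3813, 3633 and 4131 TPM in Ha and 2813, 966.0 and 2269.8 TPM in Hb. The groups again did not overlap, and the log2 fold change was −0.90 (SE 0.260, adjusted p = 0.0164). Without Hb replicate 2 both were smaller, at −0.67 (adjusted p = 0.00298) and −0.66 (adjusted p = 0.00455). Both calls were lost when any 1 Ha library was left out (adjusted p = 0.0546 to 0.0729) and when libraries were scaled by their total alone (adjusted p = 0.0631 and 0.0577).

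The most abundant member, ssc-miR-30e-5p, was at 20962, 18097 and 20159 TPM in Ha and at 15549, 9838 and 13969 TPM in Hb. The groups did not overlap in TPM, but the log2 fold change of −0.48 (SE 0.211) did not pass the test in the fit of the 6 HZ libraries (adjusted p = 0.0913). It passed without Hb replicate 2 (log2 fold change −0.47, adjusted p = 0.0187) and in a fit of all 12 libraries (log2 fold change −0.48, adjusted p = 0.00924). It was −0.32 without Hb replicate 1 (adjusted p = 0.281) and −0.42 without Ha replicate 1 (adjusted p = 0.452). In contrast, ssc-miR-30a-5p was at 5364, 5209 and 5601 TPM in Ha and at 5821, 8832 and 7162 TPM in Hb. All Hb libraries lay above the Ha libraries, and Hb replicate 2, which was the lowest for the other abundant 5p entries, was the highest here. The log2 fold change of 0.65 (SE 0.302) did not pass in the fit of the 6 libraries (adjusted p = 0.111) and passed in the fit of all 12 (adjusted p = 0.0407). Single libraries decided its size: it was 0.24 without Hb replicate 2 (adjusted p = 0.328) and 1.05 without Hb replicate 1 (adjusted p = 0.00380). For ssc-miR-30b-5p, the Ha libraries were at 1138, 969.0 and 1073 TPM, and the Hb libraries at 1602, 634.8 and 1397 TPM lay on both sides of them.

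Of the 13 members, 2 were called in Ha vs Hb at an adjusted p-value under 0.05, both downward. The background was 34.3% of the 1441 miRNAs tested in either direction and 13% downward, and 50% in either direction among those whose mean reached 10 TPM in any group. The other 9 members with no unadjusted p-value under 0.1 had log2 fold changes between −0.99 (miR-30-z) and 0.40. The median over the 13 members was 0.25, against 0.32 over all miRNAs tested and 0.043 over those whose mean reached 10 TPM in any group. In TPM, 3 members lay lower in every Hb library (background 20.7%) and 3 higher, namely ssc-miR-30a-5p, ssc-miR-30a-3p and ssc-miR-30c-1-3p (background 23%). At the study's thresholds, an absolute log2 fold change above 1 with an unadjusted p-value under 0.05, edgeR called 0 members, against 39.6% of all miRNAs. DESeq2 and the edgeR exact test also called 0 at these thresholds. An unadjusted p-value under 0.05 was reached by 3 members, against 45% of all miRNAs.

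In LC boars the same age question was put by La vs Lb. Here ssc-miR-30c-5p and ssc-miR-30e-3p fell and ssc-miR-30b-5p rose. For ssc-miR-30c-5p, the La libraries were at 4107, 4075 and 3869 TPM and the Lb libraries at 3416, 3120 and 3251 TPM. The groups did not overlap, and the log2 fold change was −0.48 (SE 0.0874, adjusted p = 0.000831). For ssc-miR-30b-5p, the values were 1119, 999.0 and 1006 TPM in La and 1649, 1556 and 1435 TPM in Lb. All Lb libraries were the higher, with a log2 fold change of 0.39 (SE 0.0971, adjusted p = 0.00647). For ssc-miR-30e-3p, the passenger arm of the most abundant hairpin product, they were 262.9, 286.8 and 262.3 TPM in La and 214.2, 228.8 and 203.3 TPM in Lb. All Lb libraries were the lower, with a log2 fold change of −0.51 (SE 0.118, adjusted p = 0.00456). The call of ssc-miR-30b-5p was lost in a fit of all 12 libraries (adjusted p = 0.168), and that of ssc-miR-30e-3p with scaling by library total (−0.29, adjusted p = 0.0580). The same scaling gave −0.27 for ssc-miR-30c-5p (adjusted p = 0.0332) and 0.61 for ssc-miR-30b-5p (adjusted p = 0.000431).

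The abundant entries ssc-miR-30e-5p and ssc-miR-30d overlapped between the ages in LC boars. The former was at 19858, 18412 and 18167 TPM in La and 18492, 18763 and 18289 TPM in Lb, and the latter at 6570.0, 6064 and 6013 TPM in La and 6040.0, 6459 and 5834 TPM in Lb. The edgeR log2 fold changes of −0.20 (SE 0.0890, adjusted p = 0.0945) and −0.20 (SE 0.0967, adjusted p = 0.122) did not pass. With scaling by library total they became 0.012 and 0.010, and that scaling moved the median of all miRNAs by 0.22. Without Lb replicate 2 both passed, at −0.31 (adjusted p = 0.0179) and −0.34 (adjusted p = 0.0105). For ssc-miR-30a-5p, the La libraries were at 5861, 5588 and 5439 TPM and the Lb libraries at 6472, 6043 and 6738 TPM. The Lb libraries lay higher in TPM, and the difference did not pass after TMM normalization (adjusted p = 0.944). The entry miR-30-x was at 124.0, 108.1 and 112.1 TPM in La and 171.1, 162.5 and 145.7 TPM in Lb (log2 fold change 0.30, SE 0.120, adjusted p = 0.0668). It passed with scaling by library total (0.51, adjusted p = 0.00633), filterByExpr, merged identical sequences and without Lb replicate 3 (adjusted p = 0.0219 to 0.0405 in these 3). It was 0.19 without Lb replicate 2 (adjusted p = 0.231) and 0.24 in the fit of all 12 libraries (adjusted p = 0.375). The entry ssc-miR-30c-1-3p was at 9.69, 9.20 and 10.1 TPM in La and 8.01, 8.08 and 7.30 TPM in Lb (log2 fold change −0.49, SE 0.208, adjusted p = 0.0805). It passed with filterByExpr (adjusted p = 0.0453) and without Lb replicate 2 (−0.61, adjusted p = 0.0313), and was −0.27 with scaling by library total (adjusted p = 0.336).

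In all, 3 members were called in La vs Lb, 1 upward and 2 downward. The background was 40.2% of the 1446 miRNAs tested, 26.8% upward and 13.4% downward, and 62% among those of at least 10 TPM. The median log2 fold change over the members was −0.013, against 0.32 over all miRNAs tested and −0.015 over those whose mean reached 10 TPM in any group. In TPM, 6 members did not overlap upward (background 36.3%) and 3 downward (background 14%). No member passed the study's thresholds in edgeR, DESeq2 or the exact test, against 32.1% of all miRNAs. An unadjusted p-value under 0.05 was reached by 6 members, against 47% of all miRNAs. The members called in both breeds had 1 entry in common, ssc-miR-30c-5p.

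**Figure D2:**
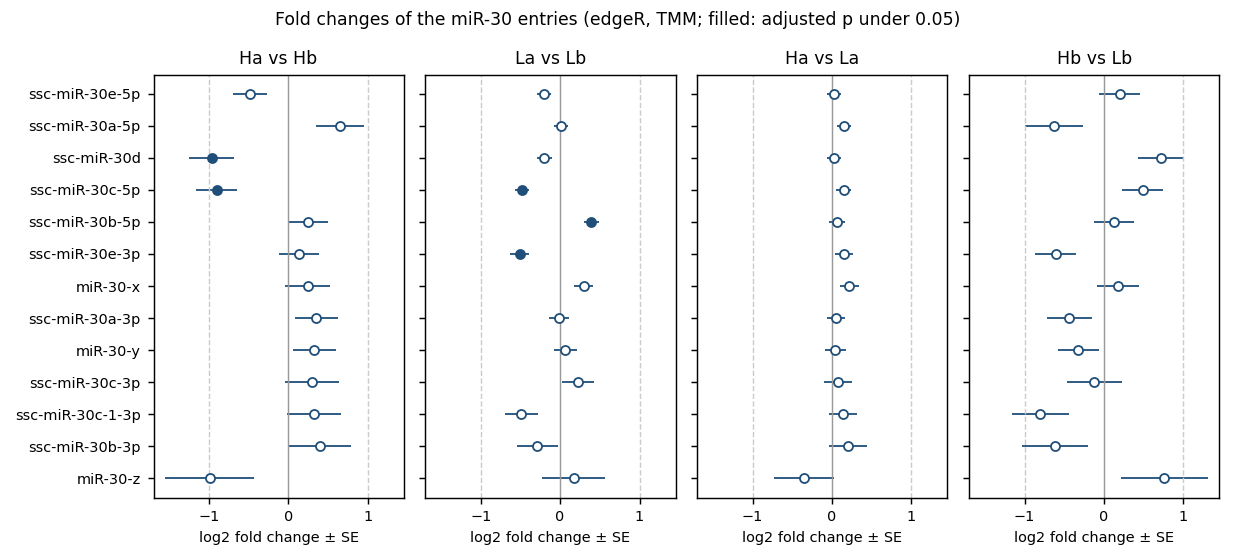
Log2 fold change ± SE (horizontal axis, edgeR with TMM normalization) of the 13 miR-30 entries in the 2 age comparisons (left panels) and the 2 breed comparisons (right panels), with positive values for a higher level in the second group, filled points for an adjusted p-value under 0.05 and dashed lines at a log2 fold change of −1 and 1. Filled points are ssc-miR-30d and ssc-miR-30c-5p in Ha vs Hb and ssc-miR-30c-5p, ssc-miR-30b-5p and ssc-miR-30e-3p in La vs Lb, and no point is filled between breeds.

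Between the breeds at 30 days (Ha vs La) no member differed beyond the spread of the libraries. Log2 fold changes ran from −0.35 (miR-30-z) to 0.22 (miR-30-x, SE 0.118, adjusted p = 0.276), with a median of 0.074 against −0.011 over all miRNAs and −0.0048 over those reaching 10 TPM. For miR-30-x it was 0.13 without Ha replicate 2 (adjusted p = 0.638) and 0.12 with scaling by library total (adjusted p = 0.622). All 13 members overlapped in TPM, where the background was 10.7% higher and 16.7% lower in La without overlap. The edgeR test called 0 members at an adjusted p-value under 0.05 (background 11.3% of 1278), 0 had an unadjusted p-value under 0.05 (background 24.7%), and DESeq2 and the exact test also called 0. At the study's thresholds 0 members were called, against 9.47% of all miRNAs.

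At 120 days (Hb vs Lb) 3 abundant 5p entries were lower in every Hb library than in any Lb library: ssc-miR-30e-5p, ssc-miR-30d and ssc-miR-30c-5p (background 18.6%). The opposite held for ssc-miR-30c-1-3p, at 10.4, 10.5 and 10.6 TPM in Hb and 8.01, 8.08 and 7.30 TPM in Lb (background 7.96%). None passed edgeR's test after adjustment, where the background was 3.25% of the 1444 miRNAs. For ssc-miR-30e-5p the log2 fold change after TMM normalization was 0.20 (SE 0.259, adjusted p = 0.696). Before adjustment 3 members had a p-value under 0.05, against 21.3% of all miRNAs. These were ssc-miR-30d (log2 fold change 0.72, SE 0.289, adjusted p = 0.166), ssc-miR-30e-3p (−0.61, SE 0.262, adjusted p = 0.199) and ssc-miR-30c-1-3p (−0.80, SE 0.360, adjusted p = 0.220). For ssc-miR-30c-5p the value was 0.49 (SE 0.259, adjusted p = 0.294). Without Hb replicate 2 these were 0.50 for ssc-miR-30d, −0.39 for ssc-miR-30e-3p, −0.46 for ssc-miR-30c-1-3p and 0.34 for ssc-miR-30c-5p, and scaling by library total gave −0.25 for ssc-miR-30e-3p and −0.41 for ssc-miR-30c-1-3p. DESeq2 and the exact test called 0 members after adjustment. A fit of all 12 libraries called ssc-miR-30d alone among the members (log2 fold change 0.73, adjusted p = 0.0439), with 177 miRNAs called in all. At the study's thresholds 0 members were called, against 16.8% of all miRNAs.

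Whether the age difference itself differed between breeds was tested as an interaction, (Lb − La) minus (Hb − Ha). None of the 13 members passed in edgeR (background 1.38% of 1452), and 3 had an unadjusted p-value under 0.05 (background 21.1%). The values were −0.70 for ssc-miR-30e-3p (adjusted p = 0.122), 0.71 for ssc-miR-30d (adjusted p = 0.208) and −0.87 for ssc-miR-30c-1-3p (adjusted p = 0.166). DESeq2 called ssc-miR-30e-3p (−0.80, adjusted p = 0.0375), but it called 121 miRNAs in all, against 20 in edgeR. For ssc-miR-30a-5p the value was −0.69 (adjusted p = 0.261), and single Hb libraries moved it from −0.97 (without Hb replicate 1, adjusted p = 0.0166) to −0.19 (without Hb replicate 2, adjusted p = 0.682), with −0.22 under scaling by library total. Without Hb replicate 1 ssc-miR-30e-3p also passed (−0.81, adjusted p = 0.0253). That fit called 168 miRNAs in all, against 20 with no library left out. Without Hb replicate 2 ssc-miR-30c-1-3p was −0.57, and scaling by library total gave −0.31 for ssc-miR-30e-3p and −0.45 for ssc-miR-30c-1-3p, none of them passing. The age differences of ssc-miR-30d in HZ and LC boars are not shown to differ by this test.

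The makeup of the family changed within Hb more than anywhere else. Of the family's counts, ssc-miR-30a-5p took 14.6% ± 0.582 in Ha, 15.5% ± 0.131 in La and 17.6% ± 1.06 in Lb. In Hb it took 27.8% ± 11.1, ranging from 18.7% to 40.1%, the latter in Hb replicate 2. The share of ssc-miR-30e-5p was 53.2% in Ha, 51.9% in La, 47.5% in Hb and 50.9% in Lb. In the same order, the share of ssc-miR-30d was 17.5%, 17.1%, 11.4% and 16.8%, and that of ssc-miR-30c-5p was 10.4%, 11.1%, 7.06% and 8.96%. Shares within the family do not depend on the library total. The counts of ssc-miR-30e-5p per count of ssc-miR-30a-5p, which differ by 1 base over the length they share, were 3.66 ± 0.223 in Ha, 3.34 ± 0.0467 in La, 1.91 ± 0.779 in Hb and 2.89 ± 0.197 in Lb.

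**Figure D3:**
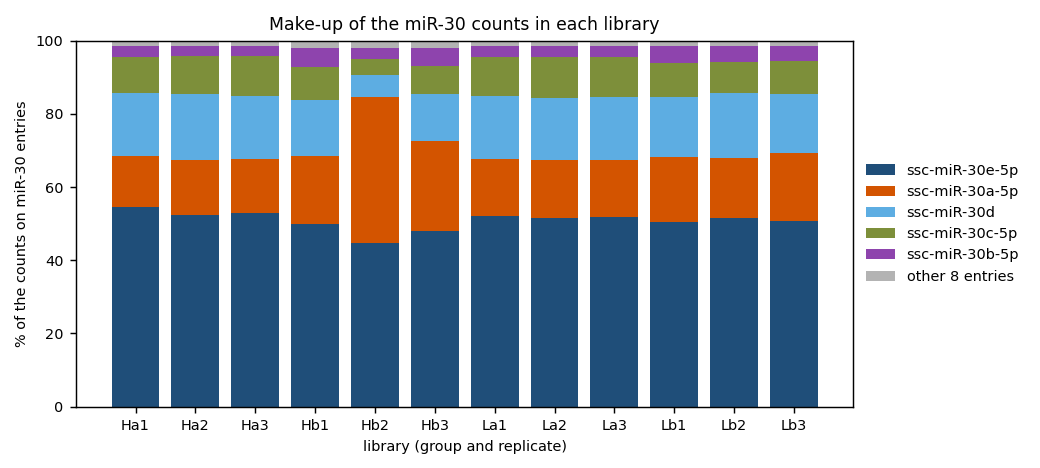
Percent of the miR-30 counts (vertical axis) taken by the 5 abundant 5p entries and by the other 8 entries together in each of the 12 libraries (horizontal axis, group and replicate). The ssc-miR-30a-5p segment is widest in Hb replicate 2, at 40.1%, and takes 13.9% to 18.7% in the 9 libraries of the other groups.

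The 5p products of the chromosome 4 pair did not keep a fixed ratio. The counts of ssc-miR-30d per count of its chromosome 4 neighbour ssc-miR-30b-5p were 6.14 ± 0.240 in Ha and 5.97 ± 0.0984 in La, and 2.58 ± 0.476 in Hb and 3.96 ± 0.261 in Lb. The ratio was thus lower in every 120-day library (2.06 to 4.15) than in any 30-day library (5.87 to 6.37), in both breeds. By contrast, ssc-miR-30d per count of ssc-miR-30c-5p, from other chromosomes, was 1.69 ± 0.0802 in Ha, 1.55 ± 0.0562 in La, 1.57 ± 0.189 in Hb and 1.88 ± 0.167 in Lb. For the 3p entries of the chromosome 6 pair, the counts of ssc-miR-30e-3p per count of ssc-miR-30c-1-3p were 27.8 ± 3.14 in Ha, 28.1 ± 2.71 in La, 24.8 ± 2.83 in Hb and 27.6 ± 0.820 in Lb. For the chromosome 1 pair, the counts of ssc-miR-30a-3p per count of ssc-miR-30c-3p were 7.82 ± 0.206 in Ha, 7.73 ± 0.756 in La, 8.20 ± 1.09 in Hb and 6.56 ± 0.735 in Lb. The 3p ratios of these 2 pairs thus varied less between groups than the 5p ratio of the chromosome 4 pair. The 5p ratios of these 2 pairs were not taken, since ssc-miR-30c-5p can come from both. These ratios are a description and were not tested.

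The 5p to 3p ratio compares the arms of a hairpin, for miR-30c with a 5p product of both its hairpins, and is also independent of the library total. In each of the 4 member pairs the 5p entry dominated, with 43.5 to 472.4 counts of the 5p entry for each count of the 3p entry. The ratio of ssc-miR-30e was 82.6, 77.1 and 69.7 in Ha and 55.4, 43.5 and 51.6 in Hb. It was 75.5, 64.2 and 69.3 in La and 86.3, 82.0 and 90.0 in Lb. All Hb libraries lay below all others, and all Lb libraries lay above La. The log2 ratio fell by 0.61 from Ha to Hb (SE 0.141, limma, adjusted p = 0.0201 over 69 pairs of arms), whereas the difference of 0.31 from La to Lb did not pass (adjusted p = 0.187). It was higher in Lb than in Hb by 0.79 (adjusted p = 0.00333). The age differences of the breeds differed by 0.92 (SE 0.200, interaction adjusted p = 0.0470). This interaction no longer passed without any 1 library of Ha, La or Lb (adjusted p = 0.0831 to 0.139), and it passed without any 1 of Hb. The Ha vs Hb call was lost without Ha replicate 1 (adjusted p = 0.0728) or Ha replicate 2 (adjusted p = 0.0509). In fits of only the 6 libraries compared, the calls moved: Ha vs Hb (adjusted p = 0.172) and Hb vs Lb (adjusted p = 0.0753) were lost, and La vs Lb passed (adjusted p = 0.0444).

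The ratio of ssc-miR-30c-5p to ssc-miR-30c-3p was 382.9, 389.1 and 441.7 in Ha and 237.3, 91.3 and 241.6 in Hb. It was 412.8, 472.4 and 396.7 in La and 250.5, 294.5 and 241.8 in Lb. The 120-day libraries were lower than the 30-day libraries in both breeds without overlap. The log2 ratio fell by 1.22 in HZ (SE 0.315, limma, adjusted p = 0.0215), and by 0.76 without Hb replicate 2 (adjusted p = 0.00381). The call was lost without any 1 Ha library (adjusted p = 0.0596 to 0.0736). In LC the difference was −0.70 (adjusted p = 0.184). In fits of only the 6 libraries compared, the LC difference passed (SE 0.113, adjusted p = 0.00566) and the HZ difference did not (adjusted p = 0.172), so which breed was called depended on the libraries in the fit. Since both miR-30c hairpins give the same 5p sequence, the ratio was also taken against both 3p entries together, with a fall of 1.23 in HZ (adjusted p = 0.0184) and a difference of −0.39 in LC (adjusted p = 0.537). In Hb vs Lb the log2 ratio to ssc-miR-30c-3p was higher in Lb by 0.59 (limma, adjusted p = 0.163), and by 0.13 without Hb replicate 2. Against both 3p entries it was higher by 0.88 (adjusted p = 0.0503).

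For ssc-miR-30a the ratio was 72.2 ± 2.03 in Ha, 77.5 ± 1.80 in La and 78.7 ± 2.21 in Lb. In Hb it was 64.5, 111.0 and 80.6, and Hb replicate 2 was the highest of the 12 libraries. For ssc-miR-30b the 3p entry had only 41 to 105 counts per library, and the ratios of 213.5 ± 53.8 in Ha, 190.9 ± 34.3 in La, 207.6 ± 98.5 in Hb and 310.1 ± 72.7 in Lb passed in no comparison. The La and Lb libraries overlapped only at their edges (162.1 to 228.9 and 227.1 to 362.0). Of the 4 pairs, limma called 2 in Ha vs Hb, both downward (background 30.4% of the 69 pairs, 8.7% downward). It called 1 in Hb vs Lb, upward (30.4%, 18.8% upward), and 1 in the interaction (2.9%). It called 0 in La vs Lb (7.25%), where 1 pair had an unadjusted p-value under 0.05 (background 26.1%), and 0 between the breeds at 30 days (2.9%), where 0 pairs had one (background 8.7%).

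**Figure D4:**
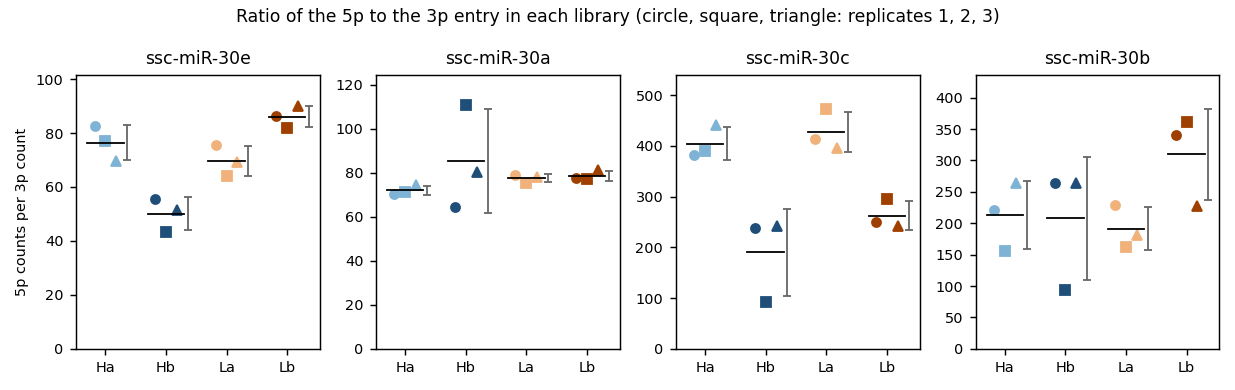
5p counts per 3p count (vertical axes, from 0) of the 4 miR-30 pairs by group, with 1 point for each library (circle, square and triangle for replicates 1, 2 and 3), a black line for the group mean and a grey bar for mean ± SD (n = 3). The ssc-miR-30e ratio is lowest in Hb (43.5 to 55.4), and the ssc-miR-30c ratio is lower at 120 days than at 30 days in both breeds.

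The pattern of ssc-miR-30e-5p over the 12 libraries was most like that of ssc-miR-30d (Pearson r = 0.98 on log2(TPM + 1)) and ssc-miR-30c-5p (r = 0.97) among the members. It ran opposite to ssc-miR-30a-5p (r = −0.84), which carries the same seed. Outside the family, the 5 most alike of 206 entries with at least 100 TPM were miR-484-x (r = 0.98), ssc-miR-574-3p (0.98), ssc-miR-423-3p (0.96), ssc-miR-542-3p (0.96) and ssc-miR-7134-5p (0.96). All 5 had their lowest group mean in Hb. For example, ssc-miR-542-3p was at 567.3 ± 20.2 TPM in Ha, 475.9 ± 76.9 in La, 201.2 ± 64.1 in Hb and 406.2 ± 24.7 in Lb. These correlations are a description, since the points share their libraries and totals. They were not recomputed without the Hb libraries. On TMM-scaled values ssc-miR-542-3p ranked 5 and the others between 22 and 44.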

How the data were processed

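Small RNA libraries of testis (4 groups of 3) were analysed from the tables that the authors deposited. The authors removed low-quality reads and adaptors with fastp, removed tags of other non-coding RNAs and of exons, introns and repeats of Sscrofa11.1, matched the remaining tags to miRBase with bowtie and counted them with miRDeep2. The deposited counts are raw tag counts for each miRNA. The TPM deposited by the authors divide each count by a library total and write a count of 0 as 0.01. The authors gave each small RNA 1 annotation by a priority order that put exist miRNAs first and known miRNAs second. How tags that fit several miR-30 entries of the same class were assigned is not given in the sources used here. Small RNA ligation and PCR can also favour some sequences, so levels of different entries are less certain than changes of 1 entry. No molecular identifiers were used, so floors of 3 counts cover counting error only.

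Counts were tested with edgeR 4.0.16 (glmQLFit, glmQLFTest, TMM) in R 4.3.3, in a separate fit of the 6 libraries of each comparison over all miRNAs with at least 1 count, with Benjamini-Hochberg adjustment over all of them and a threshold of 0.05. The study's thresholds were counted beside it. The interaction used all 12 libraries. Log2 ratios of 5p to 3p counts (0.5 added to each) were tested with limma 3.58.1 over all 69 pig pairs with a mean of at least 10 counts of each arm, in 1 fit of 4 groups. DESeq2 1.42.0, the exact test and other scalings, filters and designs served as alternatives. Members whose mean reached 10 TPM in any group were described singly, with a fold change where the unadjusted p-value was under 0.1, and entries like ssc-miR-30e-5p were the 5 with the highest Pearson r among those of at least 100 TPM. The members, marker lists and rules were chosen with earlier results of these data known. Sequences came from the deposited list and positions from RefSeq by name, and the sequences of ssc-miR-30d, ssc-miR-30b-5p, ssc-miR-30b-3p and miR-30-y are not reported here.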

Additional observations from a re-analysis of the deposited data

Results flagged for a closer look

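The age difference in the 5p to 3p ratio of ssc-miR-30e differed between breeds, by 0.92 on the log2 scale (LC minus HZ, interaction in limma, adjusted p = 0.0470). It did not pass without any 1 of the 9 libraries of Ha, La and Lb (adjusted p = 0.0831 to 0.139) or with the replicate number as a block (adjusted p = 0.0599). The ratio was lower at 120 days in all 3 HZ libraries and higher in all 3 LC libraries.

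For ssc-miR-30c-1-3p, every Hb library lay above every Ha library in TPM (log2 ratio of mean TPM 0.17) and every Lb library lay below every La library (log2 ratio of mean TPM −0.31). The interaction in edgeR, on the TMM scale, was −0.87 and did not pass (adjusted p = 0.166), and the entry had at least 77 counts in each library.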

How the results depend on the processing

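Of the alternative values computed for the reported results, 28 lost and 18 gained a call, 47 moved and 2 reversed. The other 528 kept the direction and the side of the threshold, or stayed within the spread or 1.5 times the count. Correlations were counted among these 528 if they stayed above 0, whatever their rank. The 2 reversals were ssc-miR-30e-5p and ssc-miR-30d in La vs Lb with scaling by library total (0.012 and 0.010), a scaling that shifted the median of all miRNAs by 0.22 in La vs Lb, 0.27 in Hb vs Lb and 0.33 in the interaction. In Ha vs Hb, members called at an adjusted p-value under 0.05 numbered 0 with scaling by library total, 4 in a fit of all 12 libraries and 0 to 3 with 1 library left out. These settings called 371, 609 and 346 to 566 of all miRNAs, against 494 in the main fit. In La vs Lb the members called numbered 5 with filterByExpr, which tests fewer miRNAs, and 3 to 6 with 1 library left out. These settings called 436 and 451 to 619 of all miRNAs, against 581 in the main fit. In Hb vs Lb the fit of all 12 libraries called 1 member, and in the interaction DESeq2 called 1 and leaving out 1 library gave 0 to 2. Over all miRNAs, that fit of Hb vs Lb called 177, against 47 in the main fit. For the interaction, DESeq2 called 121 miRNAs and leaving out 1 library gave 0 to 168, against 20 in the main fit. At the study's thresholds, 0 to 3 members were called in Ha vs Hb and 0 to 2 in Hb vs Lb with 1 library left out. Calls over all miRNAs at these thresholds were not counted for the alternatives. For arm ratios, fitting only the 6 libraries compared called 0 pairs in Ha vs Hb, 0 in Hb vs Lb and 2 in the age comparison of LC boars, and leaving out 1 library gave 0 to 2 in Ha vs Hb and 0 to 1 in the interaction. The cause of these changes was not tested except where stated. The family share by the authors' TPM was 3.71% in Ha, 3.63% in La, 2.75% in Hb and 3.64% in Lb. By the shared seed it was 4.13% in Lb, and with the 10 most abundant miRNAs left out of the total 9.94% in Ha, 10.1% in La, 6.68% in Hb and 7.87% in Lb. With 1 library left out, the share was 4.10% to 4.32% in Ha, 3.96% to 4.13% in La, 2.91% to 3.45% in Hb and 4.16% to 4.20% in Lb. Replicate numbers did not pair the libraries: the correlation of same-numbered deviations ran from −0.12 to 0.13 and was above 0.1 in 1 of 12 pairs. With the replicate number as a block, 1 member was called at the study's thresholds in Ha vs Hb and 0 pairs in the arm ratio interaction (adjusted p = 0.0599), while calls over all miRNAs went from 494 to 383 in Ha vs Hb, 47 to 138 in Hb vs Lb, 581 to 554 in La vs Lb and 145 to 146 between the breeds at 30 days. Depth limits miR-30-z most, followed by the 3p entries of miR-30b and miR-30c.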

Other observations

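The entry outside the family with the miR-30 seed, miR-384-x (tGTAAACAattcctaggtaat, seed in capitals), was at 3.74 ± 0.966 TPM in Ha (SD, n = 3), 1.19 ± 0.237 in Hb, 0.276 ± 0.0976 in La and 0.356 ± 0.0413 in Lb. It was chosen after its values were seen. All HZ libraries lay above all LC libraries, at levels of few counts.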
